A study of Mus musculus with 15 samples.

Results

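Liver RNA-seq of Stab1-/- and wildtype mice was read here through 10 genes whose transcripts are commonly used as gauges of glucocorticoid exposure, metal and acute stress, and the fed or fasted state: Mt1, Mt2, Fkbp5, Tsc22d3, Cdkn1a, Angptl4, Sgk1, Fgf21, Gadd45b and Zbtb16. They were taken by symbol from the 19464 rows of the deposited expression table, and all 10 symbols were present. The series holds 4 groups of livers: 2-week-old Stab1-/- mice (n = 4), 2-week-old wildtype mice (n = 4), E17.5 Stab1-/- fetal samples (n = 3) and E17.5 wildtype fetal samples (n = 4). Stab1 encodes Clever-1, a scavenger and trafficking receptor of endothelial cells and macrophages, and the Stab1-/- mice lack it in every cell type. The same mixed C57BL/6N;129SvJ strain background is stated for both genotypes and both stages. No treatment is stated, and neither the feeding state nor whether the wildtype animals were littermates is stated. The question put to the 10 genes was whether the genotype groups, the stages or single livers differed in stress or feeding state.

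Glucocorticoids cross the cell membrane and bind the glucocorticoid receptor, which enters the nucleus and activates genes such as Fkbp5, Tsc22d3, Sgk1, Zbtb16, Angptl4 and the metallothioneins. Metallothioneins also follow zinc through the metal-responsive factor MTF1, and in liver they rise with inflammation and fasting. Fasting acts in liver through the fatty acid sensor PPARA, which drives Fgf21 and Angptl4, and Fgf21 additionally follows the amino acid response. Cdkn1a and Gadd45b are general stress genes that answer to p53 and to NF-kB, respectively. Metallothionein levels are known to be high in fetal and newborn rodent liver and low in the adult.

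Library depth, as reads assigned to genes, ran from 9659 to 10964 in units of 1000 reads. Levels are given as RPKM, that is, reads divided by gene length and by the counted reads of the library, which allows comparison between genes. Differences are given as log2 fold changes with their standard error (SE), from edgeR's quasi-likelihood test on the read counts with Benjamini-Hochberg adjustment over all genes tested, and a gene is called when its adjusted p-value is under 0.05. In the libraries labelled Stab1-/-, Stab1 was 1.09 ± 0.31 RPKM (SD, n = 4) at 2 weeks against 9.29 ± 1.55 RPKM in wildtype mice (SD, n = 4). At E17.5 it was 4.37 ± 0.817 RPKM in Stab1-/- (SD, n = 3) against 17.19 ± 3.17 RPKM in wildtype samples (SD, n = 4), and each Stab1-/- library lay below each wildtype one at both stages. Hepatocyte transcripts dominated every library: the summed RPKM of 6 hepatocyte genes was 48140 to 92400. In bulk liver, fewer cells of a type and less RNA per cell cannot be told apart.

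The sequences upstream of 4 of the genes are shown because they hold letters that match response elements of these signals. They are the 250 bases before the transcription start in RefSeq on GRCm38.p6, written 5′ to 3′ in the direction of the gene. Mt1 is read from chr8:94178839-94179088 and Mt2 from chr8:94172368-94172617, both on the plus strand. Sgk1 is read from chr10:21993640-21993889 on the plus strand, which is 1 of its 6 annotated start windows, and Fgf21 from chr7:45615491-45615740 on the minus strand. Capitals mark the metal response element core (TGCACNC or TGCGCNC, either strand) in Mt1 and Mt2, the inner letters ACANNNTGT of the glucocorticoid response element in Mt1, the full palindromic glucocorticoid response element, with any letters in its gap, in Sgk1 and the amino acid response element TGATGNAAT, on the opposite strand, in Fgf21, whose single metal core match is left in lower case.
Mt1: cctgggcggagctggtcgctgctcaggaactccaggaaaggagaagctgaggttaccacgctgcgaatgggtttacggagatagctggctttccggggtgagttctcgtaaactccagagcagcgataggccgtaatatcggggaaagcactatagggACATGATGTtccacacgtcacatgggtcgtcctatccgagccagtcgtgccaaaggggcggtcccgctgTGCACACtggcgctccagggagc
Mt2: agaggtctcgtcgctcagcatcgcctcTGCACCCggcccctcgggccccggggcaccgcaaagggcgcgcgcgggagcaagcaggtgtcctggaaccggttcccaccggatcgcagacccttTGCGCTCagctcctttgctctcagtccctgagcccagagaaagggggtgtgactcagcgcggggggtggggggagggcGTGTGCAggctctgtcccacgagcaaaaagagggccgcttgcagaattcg
Sgk1: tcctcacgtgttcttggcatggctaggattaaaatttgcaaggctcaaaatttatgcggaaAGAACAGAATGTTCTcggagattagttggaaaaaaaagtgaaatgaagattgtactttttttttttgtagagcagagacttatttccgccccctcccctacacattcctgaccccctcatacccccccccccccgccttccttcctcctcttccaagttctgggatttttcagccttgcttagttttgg
Fgf21: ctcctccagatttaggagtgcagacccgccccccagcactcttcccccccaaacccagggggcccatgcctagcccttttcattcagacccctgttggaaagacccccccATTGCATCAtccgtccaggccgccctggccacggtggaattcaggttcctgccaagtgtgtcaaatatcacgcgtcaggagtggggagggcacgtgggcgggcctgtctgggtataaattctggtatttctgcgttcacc

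Windows of the same kind, which run from 250 bases before to 50 bases after a start, were searched on both strands for all 32851 starts in the table. The metal response element core was found in 25.7% of them. Of the 10 genes, 8 had a window, and 4 of their 16 windows held the core, in Fgf21, Mt1, Mt2 and Sgk1. At least 3 matches, a cut equal to the count in Mt1, were found in 1.97% of all windows. Among these were the windows of Mt1 (3 matches, 1 of them before the start) and Mt2 (4 matches, 3 before the start). The full glucocorticoid element was found in 0.00913% of the windows, which is 3 windows, 1 of them the Sgk1 window. Its inner letters ACANNNTGT, which are contained in the full element, were found in 6.85%, with Mt1 and Sgk1 among the 8 genes that had a window. The amino acid response element was found in 0.965% of the windows and among the 8 genes in Fgf21 alone. The direct repeat element of PPARA was found in 0.0396% and in none of the 16 windows of the 8 genes. Angptl4 and Zbtb16 had no window in the table. These are matches of letters, and no binding was measured.

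Of the 10 genes, the metallothioneins were the most abundant at E17.5, and their fetal levels stood higher in Stab1-/- than in wildtype livers without passing the threshold. Mt1 (Entrez gene ID 17748, chr8:94179082-94180327 in the GENCODE annotation of GRCm38) and Mt2 (Entrez gene ID 17750, chr8:94172664-94173568) encode small cysteine-rich proteins that bind zinc and copper. At E17.5, Mt1 was 1699, 1488 and 1979 RPKM in the 3 Stab1-/- livers and 974, 887, 1401 and 1054 RPKM in the 4 wildtype livers. Mt2 was 1211, 1141 and 1491 RPKM in Stab1-/- and 621, 535, 997 and 747 RPKM in wildtype livers. Every Stab1-/- library stood above every wildtype library in both genes, and replicate 3 was the highest library in each genotype. The log2 difference between Stab1-/- and wildtype was 0.73 (SE 0.16) for Mt1 and 0.88 (SE 0.19) for Mt2, and neither was called (edgeR, Benjamini-Hochberg adjusted p = 0.1105 for each). Unadjusted, the p-values were 0.000965 and 0.00100 in the same edgeR fit. DESeq2 called both genes (adjusted p = 0.000437 and 0.000298), and over all genes it called 107 higher and 112 lower, against 26 and 23 with edgeR. Without wildtype replicate 3 edgeR called both (adjusted p = 0.0389 and 0.0346), and over all genes 20 higher and 18 lower. Of all 13388 genes tested at E17.5, 2.91% had every Stab1-/- library above every wildtype one in RPKM and 9.3% every one below, and of the 9 of the 10 genes that could be tested these were Mt1 and Mt2, both above. On TMM-scaled CPM, a scale added after the data were seen, Angptl4 stood apart above wildtype as well. On that scale 5.034% of all genes stood apart above and 5.438% below. The exact permutation test over the 7 libraries gave p = 0.0571 for each gene (two-sided, the smallest p it allows being 0.0286).

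At 2 weeks the metallothioneins varied between livers of one genotype more than between genotypes. Mt1 was 210.2, 126.8, 592 and 415 RPKM in the 4 Stab1-/- livers (replicates 1 to 4) and 102, 115, 524 and 92.6 RPKM in the 4 wildtype livers. Mt2 was 86.2, 34.9, 257 and 198 RPKM in Stab1-/- and 9.97, 13.8, 177 and 10.5 RPKM in wildtype livers. Wildtype replicate 3 alone reached the range of the Stab1-/- livers, and 3 wildtype livers lay below all 4 Stab1-/- livers in both genes. The log2 difference was 0.58 (SE 0.58) for Mt1 and 1.33 (SE 0.87) for Mt2, and neither passed the test (edgeR, adjusted p = 0.575 for Mt1 and 0.375 for Mt2). The Mt2 value turned on 1 library: without wildtype replicate 3 it was 3.59 (SE 0.60) and was called (adjusted p = 0.0176, edgeR), and that of Mt1 was 1.63 (SE 0.42, adjusted p = 0.0925). Mt2 also stands in the study's own list of genes higher in 2-week-old Stab1-/- livers, which was drawn from these libraries and is no independent evidence of its direction. The difference between genotypes did not differ detectably between the stages for either gene (edgeR interaction term, adjusted p = 0.949 for Mt1 and 0.823 for Mt2).

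**Figure D1:**
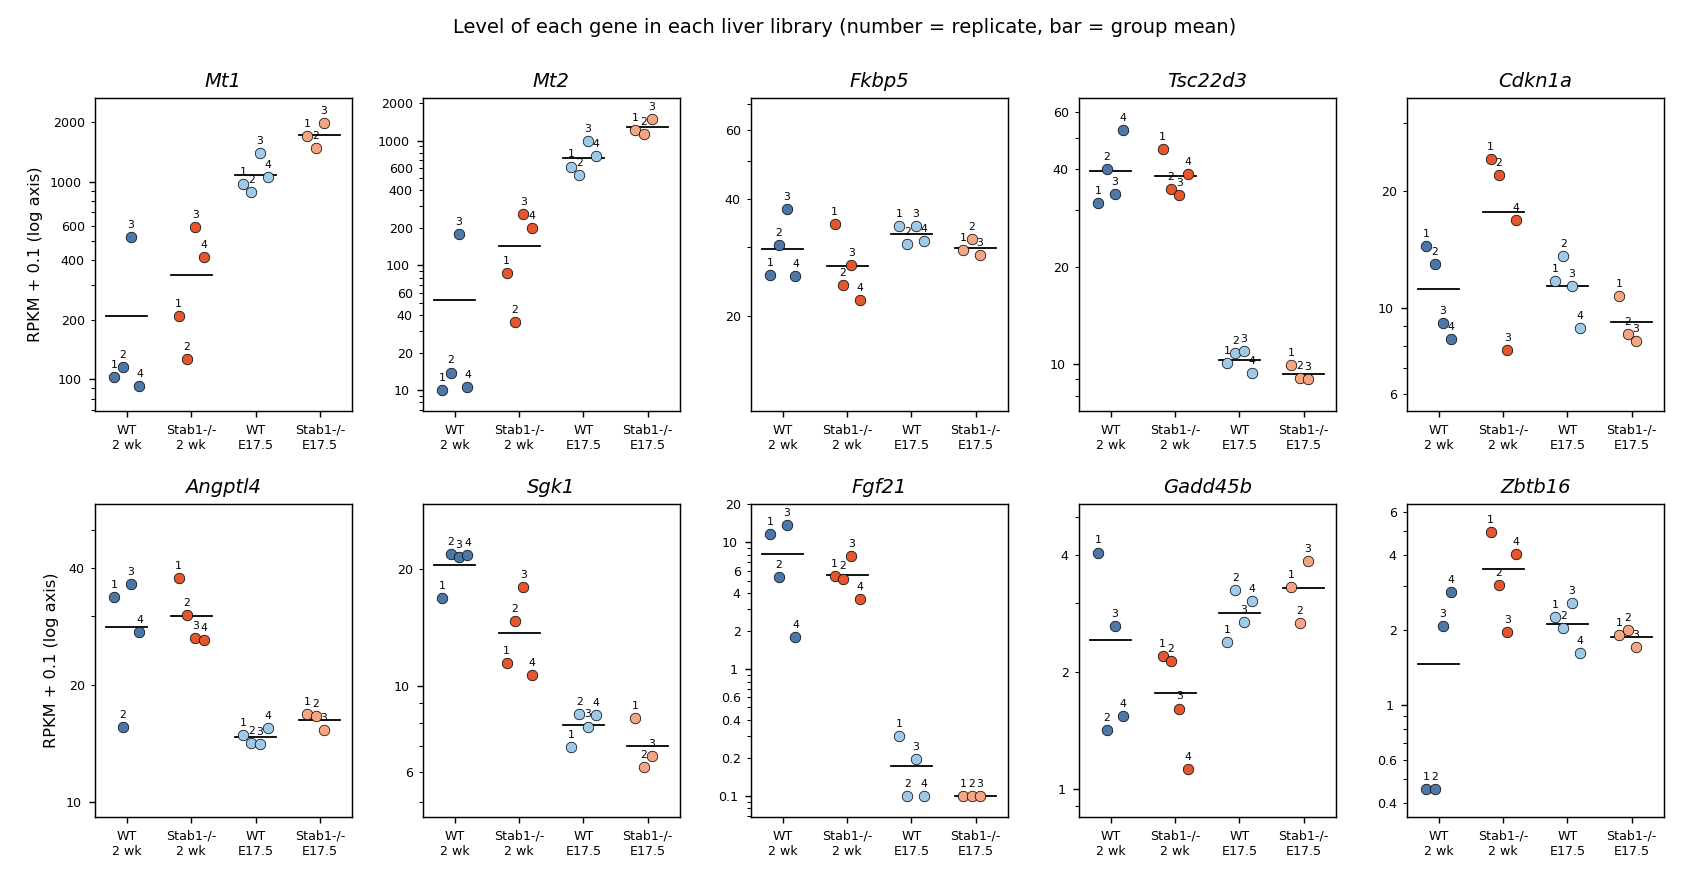
RPKM plus 0.1 on a log axis for each of the 10 genes in the 15 liver libraries, with the replicate number beside each point and a bar at the group mean; the vertical scale differs between panels. In the Mt1 and Mt2 panels wildtype replicate 3 stands apart from the other 2-week-old wildtype livers at 524 and 177 RPKM, and the E17.5 groups do not overlap.

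From E17.5 to 2 weeks both metallothioneins fell in both genotypes. In wildtype livers the log2 difference of 2 weeks minus E17.5 was -1.99 (SE 0.50) for Mt1 and -3.39 (SE 0.82) for Mt2, and these values turned on 1 library: without wildtype replicate 3 at 2 weeks they were -3.02 (SE 0.18) and -5.63 (SE 0.26), both called. In Stab1-/- livers it was -2.13 (SE 0.41) for Mt1 and -2.93 (SE 0.50) for Mt2. With all libraries, each of the 4 differences was called (edgeR, Benjamini-Hochberg adjusted p = 0.00338, 0.00258, 0.000659 and 0.000292), and in neither gene did the stages overlap. The ratio of Mt2 to Mt1 RPKM was 0.744 ± 0.028 (SD, n = 3) in Stab1-/- and 0.665 ± 0.054 (SD, n = 4) in wildtype livers at E17.5. At 2 weeks it was 0.399 ± 0.088 in Stab1-/- and 0.167 ± 0.115 in wildtype livers (SD, n = 4 each). The 3 wildtype livers with little metallothionein had ratios of 0.0975, 0.1195 and 0.113, and wildtype replicate 3 had 0.339. The ratio, chosen after the values were seen, differed between stages in each genotype (two-sided exact permutation p = 0.0286 for each, the smallest possible), and between genotypes it gave p = 0.0571 at 2 weeks and 0.114 at E17.5. Mt1 and Mt2 are similar in sequence and only uniquely mapped reads were counted, so the split of reads between them is uncertain.

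**Figure D2:**
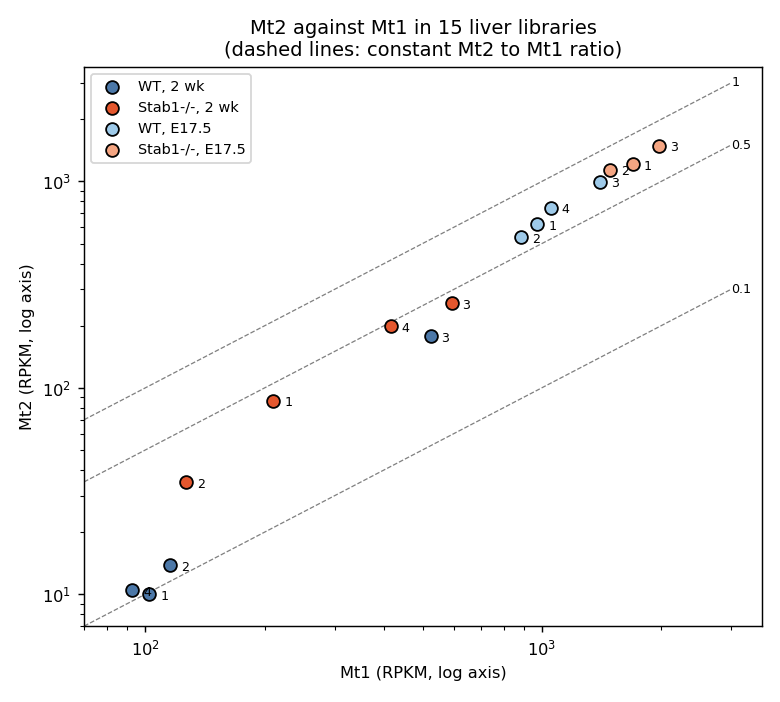
Mt2 against Mt1 in RPKM, both axes logarithmic, for the 15 libraries, coloured by group and numbered by replicate, with dashed lines of constant Mt2 to Mt1 ratio. The 7 fetal livers lie between the ratios 0.603 and 0.767, and 3 of the 4 wildtype livers at 2 weeks lie near 0.1.

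Over the 15 libraries, with each group's mean taken off, Mt1 and Mt2 deviated together (Pearson's r = 0.988, Spearman's rho = 0.982, on log2 CPM, counts scaled to library size). The genes outside the 10 whose deviations were most like those of Mt1 were H2afv (r = 0.930), Tbc1d30 (r = 0.885) and Ap5s1 (r = 0.885), and for Mt2 they were H2afv (r = 0.925), Hps4 (r = 0.910) and Zfp113 (r = 0.901). These correlations rank 11054 genes over 15 libraries that share their group means and depth, and they carry no test. H2afv, which encodes a histone variant, was 29.9 RPKM in wildtype replicate 3 at 2 weeks and 23.8 to 24.7 RPKM in the other 3 wildtype livers. None of the other glucocorticoid-responsive members followed the metallothioneins as closely: r with Mt1 was 0.458 for Fkbp5, 0.229 for Sgk1, 0.207 for Zbtb16, 0.165 for Angptl4 and -0.278 for Tsc22d3. Cdkn1a deviated in the opposite sense from Mt1, with r = -0.575 and rho = -0.607.

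Of the classical glucocorticoid targets, Sgk1 was the 1 gene of the 10 that was called between genotypes at 2 weeks, where 1.74% of 12716 genes were called lower and 0.936% higher. With scaling by library totals that split was 118 lower and 137 higher genes in place of 221 and 119. Sgk1 (Entrez gene ID 20393, chr10:21882184-21999903) encodes a kinase that regulates sodium and other ion transporters. It was 11.3, 14.6, 17.8 and 10.5 RPKM in the 4 Stab1-/- livers and 16.7, 21.7, 21.4 and 21.5 RPKM in the 4 wildtype livers. The groups overlapped through Stab1-/- replicate 3 and wildtype replicate 1, and the other 3 wildtype livers lay close together above every Stab1-/- liver. The log2 difference was -0.68 (SE 0.16), which is 62.4% of the wildtype level, and it passed the threshold narrowly (edgeR, Benjamini-Hochberg adjusted p = 0.0478). Its adjusted p was 0.0512 with median-of-ratios factors, 0.0807 with scaling by library totals and 0.00635 with DESeq2. It was not called after leaving out any 1 of Stab1-/- replicates 1, 2 and 4 or wildtype replicates 2, 3 and 4 (edgeR, adjusted p = 0.0556 to 0.143). The exact permutation test over the 8 libraries gave p = 0.0571. At E17.5 Sgk1 was 6.06 to 8.13 RPKM in Stab1-/- and 6.85 to 8.34 RPKM in wildtype livers, with a log2 difference of -0.12 (SE 0.11) that was not called. The interaction with stage was -0.52 (SE 0.21), negative where the difference was lower at 2 weeks, with an unadjusted p of 0.0251 and an adjusted p of 0.157 (edgeR).

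Fkbp5 and Tsc22d3, the targets that are read most often as gauges of glucocorticoid exposure, were not called between genotypes at either stage. Fkbp5 (Entrez gene ID 14229, chr17:28399094-28517527), a co-chaperone that dampens the glucocorticoid receptor, was 34.3, 23.8, 27.0 and 21.9 RPKM in Stab1-/- and 25.3, 30.4, 37.5 and 25.3 RPKM in wildtype livers at 2 weeks. The highest wildtype value was again that of replicate 3. Its log2 difference was -0.25 (SE 0.16, edgeR adjusted p = 0.354) at 2 weeks. At E17.5 it was 28.6 to 31.5 RPKM in Stab1-/- and 30.5 to 34.01 RPKM in wildtype livers, and the estimate was smaller than its SE. Tsc22d3 (Entrez gene ID 14605, chrX:140539528-140600659), which encodes the anti-inflammatory protein GILZ, was 46.1, 34.6, 33.2 and 38.5 RPKM in Stab1-/- and 31.4, 39.9, 33.5 and 52.7 RPKM in wildtype livers at 2 weeks. The genotypes overlapped over most of their range, and at neither stage did the Tsc22d3 estimate exceed its SE. Zbtb16 (Entrez gene ID 235320, chr9:48654297-48836222), a zinc finger transcription factor that responds strongly to glucocorticoids and is also expressed by innate-like lymphocytes, was the least even of them at 2 weeks. It was 4.86, 2.94, 1.86 and 3.96 RPKM in Stab1-/- livers and 0.355, 0.355, 1.97 and 2.73 RPKM in wildtype livers. Wildtype replicates 1 and 2 had 19 and 18 reads, far under the 92 reads of the lowest Stab1-/- liver, while wildtype replicates 3 and 4 lay within the Stab1-/- range. The log2 difference of 1.21 (SE 0.53) had an unadjusted p of 0.0420 and an adjusted p of 0.194 (edgeR), and it was not called in any alternative. At E17.5 Zbtb16 was 1.61 to 1.91 RPKM in Stab1-/- and 1.52 to 2.46 RPKM in wildtype livers, with no such division.

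The fasting response members Angptl4 and Fgf21 were not called between genotypes either. Angptl4 (Entrez gene ID 57875, chr17:33773750-33781830), a secreted inhibitor of lipoprotein lipase that both PPARA and the glucocorticoid receptor induce, was 37.6, 30.2, 26.3 and 25.9 RPKM in Stab1-/- and 33.5, 15.4, 36.3 and 27.2 RPKM in wildtype livers at 2 weeks. Wildtype replicate 2 was the low library, and the groups otherwise covered the same range. At E17.5 Angptl4 was 16.7, 16.5 and 15.2 RPKM in Stab1-/- and 14.7, 14.1, 14.0 and 15.4 RPKM in wildtype livers. The log2 difference there was 0.21 (SE 0.08) with an unadjusted p of 0.0290 and an adjusted p of 0.341 (edgeR). Fgf21 (Entrez gene ID 56636, chr7:45613886-45615490), the fasting hormone of the liver, was 5.35, 5.09, 7.65 and 3.47 RPKM in Stab1-/- livers and 11.6, 5.22, 13.5 and 1.68 RPKM in wildtype livers at 2 weeks. The wildtype livers spanned from below the lowest to above the highest Stab1-/- liver, with replicates 1 and 3 high and replicate 4 low. The log2 difference of -0.66 (SE 0.46) was not called (edgeR, adjusted p = 0.405). At E17.5 Fgf21 had 2, 0, 1 and 0 reads in the wildtype and no read in the 3 Stab1-/- libraries, at or under the floor of 3 reads per library, and it was not tested there.

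The general stress genes were Cdkn1a and Gadd45b. Cdkn1a (Entrez gene ID 12575, chr17:29090976-29100727), the cell cycle inhibitor p21, was 24.1, 21.9, 7.70 and 16.7 RPKM in Stab1-/- and 14.3, 12.9, 9.04 and 8.23 RPKM in wildtype livers at 2 weeks. In 3 Stab1-/- livers Cdkn1a lay above all wildtype livers, and Stab1-/- replicate 3, the one with the most metallothionein, lay below all of them. The Cdkn1a log2 difference was 0.58 (SE 0.28) with an adjusted p of 0.237, and without Stab1-/- replicate 3 it was 0.83 (SE 0.18) and called (edgeR, adjusted p = 0.0491). At E17.5 Cdkn1a was 8.14 to 10.7 RPKM in Stab1-/- and 8.79 to 13.5 RPKM in wildtype livers, a log2 difference of -0.26 (SE 0.15) that was not called. The interaction with stage was 0.87 (SE 0.38), with an unadjusted p of 0.0367 and an adjusted p of 0.186 (edgeR). Gadd45b (Entrez gene ID 17873, chr10:80930073-80932204) was near the bottom of the range, with 13 to 54 reads in any library. It was 2.10, 2.03, 1.51 and 1.02 RPKM in Stab1-/- and 3.95, 1.31, 2.53 and 1.44 RPKM in wildtype livers at 2 weeks, with a log2 difference of -0.56 (SE 0.35) that was not called. At E17.5 it was 2.56 to 3.76 RPKM in Stab1-/- and 2.28 to 3.15 RPKM in wildtype livers.

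In all, 1 of the 10 genes was called lower and 0 higher at 2 weeks, where 2.67% of all genes were called in either direction. None of the 10 had groups that did not overlap at 2 weeks, where 10.4% of all genes had every Stab1-/- library above and 4.5% every one below. An unadjusted p under 0.05 was found for Sgk1 and Zbtb16, and for 23.4% of all genes (edgeR). At E17.5, 0 of the 9 genes tested were called where 0.366% of all genes were, and 3 (Mt1, Mt2 and Angptl4) had an unadjusted p under 0.05 against 12.9% of all genes (edgeR). DESeq2 called 2 at E17.5, both higher, where it called 107 of the 13388 genes tested higher and 112 lower. The median log2 difference of the 10 genes was -0.08 at 2 weeks, beside -0.013 over all genes tested, and that of the 9 genes at E17.5 was -0.06 beside 0.0013. The E17.5 calls over all genes were 26 higher and 23 lower with TMM factors, and 22 and 32 with library totals. None of the 10 genes was called for the interaction of genotype and stage, where 1.81% of 13885 genes were, 0.799% higher and 1.01% lower (edgeR, 111 higher and 140 lower, or 209 and 83 with library totals), with Cdkn1a and Sgk1 under an unadjusted p of 0.05, as were 23.2% of all genes.

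**Figure D3:**
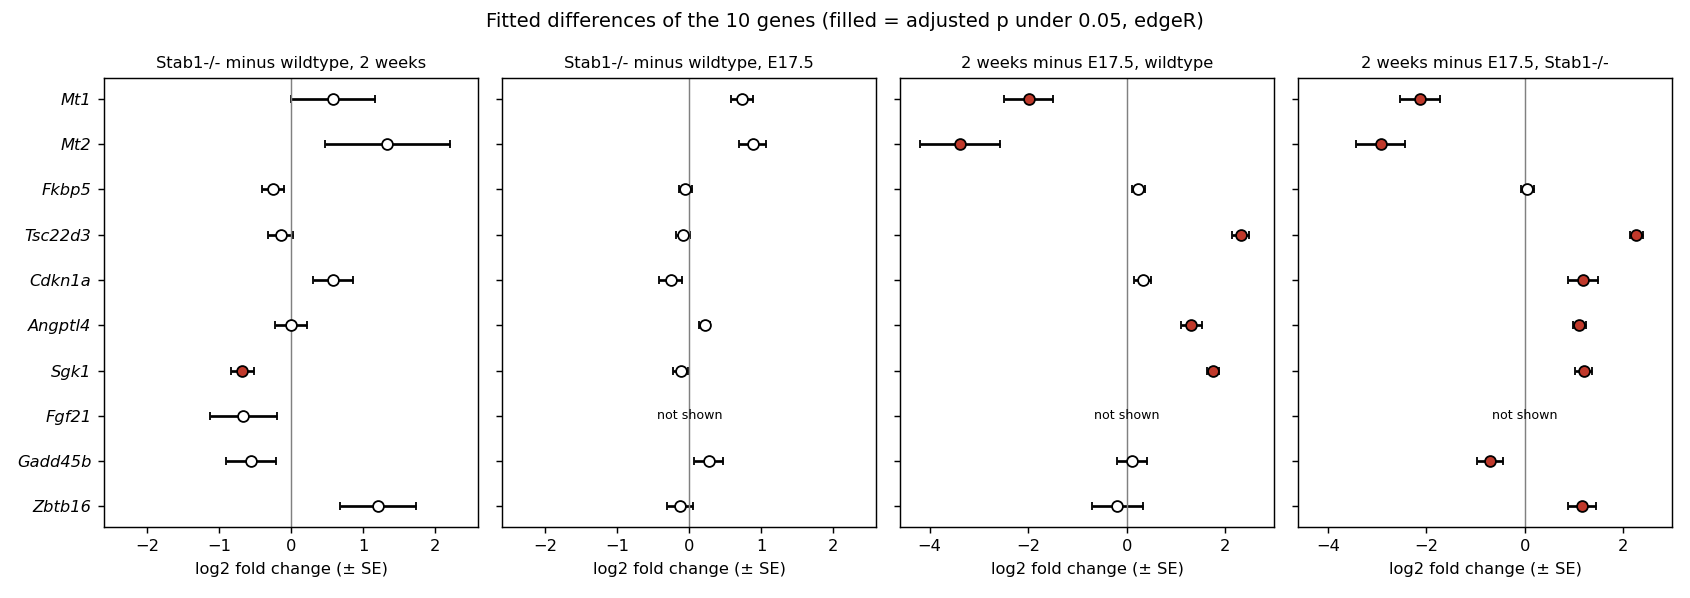
Log2 fold changes with SE from edgeR for the 10 genes, in Stab1-/- minus wildtype at 2 weeks and at E17.5 and in 2 weeks minus E17.5 for each genotype, with filled points for genes with an adjusted p under 0.05. Sgk1 is the single filled point in the genotype panels, and Fgf21 is left out where its E17.5 libraries had 0 to 2 reads.

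More of the 10 genes were called between stages than between genotypes, as in the whole table. From E17.5 to 2 weeks, 34.9% of 13369 genes were called higher and 37.0% lower in wildtype livers, and 35.7% of 13433 genes higher and 36.8% lower in Stab1-/- livers. With scaling by library totals the same split was 3104 higher and 6834 lower genes in place of 4667 and 4948 in wildtype livers, and 3758 and 5944 in place of 4791 and 4945 in Stab1-/- livers. In wildtype livers 4 of the 10 genes were called higher (Tsc22d3, Angptl4, Sgk1 and Fgf21) and 2 lower (Mt1 and Mt2). In Stab1-/- livers 6 were called higher, namely the same 4 with Cdkn1a and Zbtb16, and 3 lower, namely Mt1, Mt2 and Gadd45b. The stages did not overlap in RPKM for the 6 genes called in wildtype livers (all genes 21.1% higher and 48% lower), nor for these and Gadd45b in Stab1-/- livers (all genes 28% higher and 44% lower). The 2 stage comparisons share no library. A share of calls near 72% in the whole table means that a stage call was the common outcome for any gene.

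Tsc22d3 rose in both genotypes. It was 9.31 to 10.9 RPKM in the 4 wildtype livers at E17.5 and 31.4 to 52.7 RPKM at 2 weeks, a log2 difference of 2.31 (SE 0.17), and in Stab1-/- livers it went from between 8.91 and 9.82 RPKM to between 33.2 and 46.1 RPKM, a difference of 2.27 (SE 0.13). Sgk1 rose by a log2 value of 1.75 (SE 0.12) in wildtype and 1.20 (SE 0.17) in Stab1-/- livers. Angptl4 rose by 1.32 (SE 0.215) in wildtype and by 1.11 (SE 0.13) in Stab1-/- livers on the log2 scale. In these 3 genes no 2-week-old liver overlapped a fetal liver of its genotype, and every call had an edgeR adjusted p of at most 0.000139. Fgf21 went from 3 reads in the 4 fetal wildtype libraries together to 317 reads in the 4 at 2 weeks, a ratio of 109 per counted read (95% exact interval from counting alone, 36.9 to 530). In Stab1-/- livers 0 reads in 3 libraries stood against 203 reads in 4, so that Fgf21 was at least 17.9-fold higher against the floor of 3 reads per library.

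Fkbp5 held nearly the same level throughout. Its group means were 32.4 ± 1.85 RPKM in wildtype (SD, n = 4) and 29.8 ± 1.52 RPKM in Stab1-/- fetal livers (SD, n = 3), and 29.6 ± 5.80 RPKM and 26.7 ± 5.45 RPKM at 2 weeks (SD, n = 4 each), and each group overlapped the next in order. Its stage difference was not called in either genotype, and in wildtype livers its sign depended on the scaling (0.24 with TMM factors, -0.13 with library totals). Cdkn1a in wildtype livers behaved alike, with 0.33 (SE 0.17, edgeR adjusted p = 0.107) under TMM factors and -0.03 under library totals. Both were called when 1 wildtype library at 2 weeks was left out, Fkbp5 without replicate 1 (0.34, edgeR adjusted p = 0.0387) and Cdkn1a without replicate 4 (0.44, edgeR adjusted p = 0.0314). In Stab1-/- livers Cdkn1a rose by 1.18 (SE 0.30) and Zbtb16 by 1.16 (SE 0.28) on the log2 scale (edgeR, adjusted p = 0.00479 and 0.00277), although in RPKM their stages overlapped through Stab1-/- replicate 3 at 2 weeks for Cdkn1a and for Zbtb16. Gadd45b fell by 0.71 (SE 0.27) on the log2 scale in Stab1-/- livers, where no 2-week-old library reached a fetal one (edgeR, adjusted p = 0.0323). That call was lost without any 1 of Stab1-/- replicates 3 and 4 at 2 weeks and replicate 3 at E17.5 (edgeR, adjusted p = 0.0735, 0.0681 and 0.124), without the filter on low counts (0.0542) and with DESeq2 (0.0534). That a stage difference was called in 1 genotype and not in the other does not show that the genotypes differed, since the interaction was called for none of these genes.

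Transcripts of blood cells moved with stage at the same time. The summed RPKM of 8 erythroid genes was 147 to 377 at 2 weeks and 9898 to 13320 at E17.5, and that of 8 granulocyte genes was 50.1 to 438 and 3820 to 8637. The part of these cells in the stage differences of the 10 genes was not tested. Between genotypes the granulocyte genes were apart in opposite directions, with 202 to 438 in Stab1-/- against 50.1 to 165 in wildtype livers at 2 weeks and 3820 to 4174 against 5390 to 8637 at E17.5. None of the 7 granulocyte genes tested at 2 weeks was called, where 2.67% of all genes were (edgeR). None of the 8 at E17.5 was called, where 0.366% of all genes were (edgeR). For the interaction with stage 3 of the 8 were called higher and 0 lower, where 0.799% of all genes were called higher and 1.01% lower (edgeR). The 6 hepatocyte genes summed to 56040 to 71730 RPKM in Stab1-/- and 72330 to 92400 RPKM in wildtype livers at 2 weeks, with none called. At E17.5 libraries of both genotypes held transcripts of other organs. The 10 intestinal genes summed to 316 RPKM in Stab1-/- replicate 1 and to 10.6 to 28.4 RPKM in the other 6 fetal livers, where Guca2a, Sct and Phgr1 had no read in any wildtype liver. The 7 pancreatic acinar genes summed to 2698, 259 and 88.1 RPKM in wildtype replicates 2, 3 and 1 and to 76.6 RPKM in Stab1-/- replicate 3, against 11.8 to 13.5 RPKM in the other 3 fetal livers. Without Stab1-/- replicate 1 the fetal metallothionein differences were 0.76 for Mt1 and 0.94 for Mt2 (log2). They were 0.65 and 0.76 without wildtype replicate 2, and 0.88 and 1.07 without wildtype replicate 3. The part of the transcripts of other organs in these differences was not tested.

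At 2 weeks the 10 genes set single livers apart more than most genes did. The SD of log2 CPM around the genotype means was 1.69 for Mt2, 1.18 for Zbtb16, 1.10 for Mt1 and 0.97 for Fgf21, where the median of 12716 genes was 0.21. These 4 values lay at percentiles 99.95, 99.87, 99.83 and 99.69 of all genes, and above at least 99.8% of the 500 genes nearest in mean level. Cdkn1a followed with 0.58 (percentile 97.0), while Fkbp5, Tsc22d3 and Sgk1 lay at percentiles 66.4, 73.6 and 70.5. At E17.5 the same genes were far more even, with 0.33 for Mt2, 0.25 for Mt1 and 0.26 for Zbtb16 beside a median of 0.17, and Tsc22d3 and Angptl4 were at percentiles 9.57 and 9.02. No single liver was high in all genes. Wildtype replicate 3 was the highest of its group in Mt1, Mt2, Fkbp5, Angptl4 and Fgf21 and the lowest in none. Stab1-/- replicate 3 was the highest in Mt1, Mt2, Sgk1 and Fgf21 and the lowest in Tsc22d3, Cdkn1a and Zbtb16. Stab1-/- replicate 1 was the highest in the 6 genes Fkbp5, Tsc22d3, Cdkn1a, Angptl4, Gadd45b and Zbtb16.

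**Figure D4:**
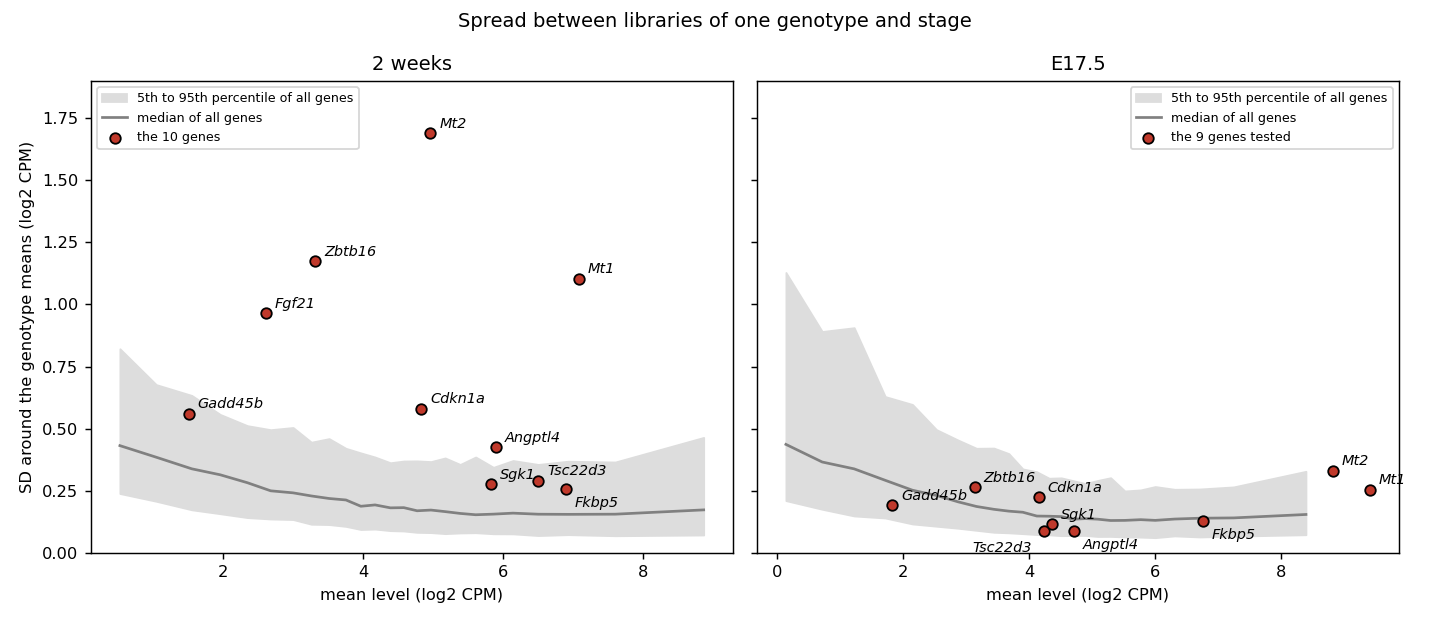
SD of log2 CPM around the genotype means against mean level, for 2-week-old livers (8 libraries) and E17.5 livers (7 libraries), with the grey band covering the 5th to 95th percentile of all tested genes at each level. At 2 weeks Mt2, Zbtb16, Mt1, Fgf21, Cdkn1a and Angptl4 lie above the band. Of the 9 genes tested at E17.5, Mt1 and Mt2 have mean levels (9.404 and 8.815) beyond the right end of the band at 8.393, and the others lie in it.

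The genes most like the other members in their deviations from the group means were Fanci (r = 0.897), Txnl4a (r = 0.851) and Sbk1 (r = 0.843) for Fkbp5. For Tsc22d3 they were the sterol synthesis genes Fdps (r = 0.915) and Nsdhl (r = 0.913) with Ptcd3 (r = 0.897). Fdps was 20.3 RPKM in wildtype replicate 4 at 2 weeks, where Tsc22d3 was highest, and 6.56 to 11.3 RPKM in the other 3 wildtype livers. For Angptl4 they were Rabgef1 (r = 0.906), Qser1 (r = 0.891) and Syne3 (r = 0.870), each over the same 15 libraries and 11054 genes and without a test.

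Related genes were read as 9 further lists. The 6 genes of the glucocorticoid machinery, which include the receptor Nr3c1 and the cortisone-activating enzyme Hsd11b1, held no call between genotypes at either stage. Nr3c1 differed by 0.11 (SE 0.09) at 2 weeks, and the median of the list was 0.14 at 2 weeks and 0.13 at E17.5 beside -0.013 and 0.0013 over all genes. Of 11 other glucocorticoid targets tested at 2 weeks, where 1.74% of all genes were called lower and 0.936% higher, 1 was lower and 0 higher. This was Errfi1, a feedback inhibitor of the EGF receptor, with 136, 89.2, 119 and 145 RPKM in Stab1-/- and 183, 291, 256 and 223 RPKM in wildtype livers. The groups did not overlap, and the log2 difference was -1.05 (SE 0.18, edgeR adjusted p = 0.0110). The list had 9 genes below 0 and 2 above at 2 weeks, with a median of -0.34, beside 52.0% of all genes below 0 and a median of -0.013. Without wildtype replicate 3 it had 8 of 12 genes below 0 and a median of -0.24. Tat and Sds, amino acid-degrading enzymes that glucocorticoids induce, differed by -0.52 (SE 0.24) and -0.81 (SE 0.28) and were not called. Tdo2, which degrades tryptophan, was 0.57 (SE 0.16) at 2 weeks and -2.15 (SE 0.55) at E17.5, uncalled at each, and its interaction with stage was called (2.75, SE 0.56, edgeR adjusted p = 0.0291). At E17.5 Tdo2 was 0.287 to 0.697 RPKM in Stab1-/- and 0.942 to 3.197 RPKM in wildtype livers. At E17.5 none of the 12 targets was called.

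Genes of metal handling were looked at beside the metallothioneins. Of 11 tested at 2 weeks, 2 were lower and 0 higher, where 1.74% of all genes were called lower and 0.936% higher. The 2 were the zinc importers Slc39a4 and Slc39a5. Slc39a4 was 16.1, 26.1, 17.7 and 21.6 RPKM in Stab1-/- and 23.3, 35.9, 47.5 and 46.1 RPKM in wildtype livers, overlapping through 1 library of each genotype, with a log2 difference of -1.003 (SE 0.23, edgeR adjusted p = 0.0455). Slc39a5 was 4.30 to 5.30 RPKM in Stab1-/- and 6.21 to 7.28 RPKM in wildtype livers, with -0.57 (SE 0.12, edgeR adjusted p = 0.0330). Slc30a1, a zinc exporter that shares the MTF1 control of the metallothioneins, differed by 0.08 (SE 0.18) at 2 weeks and by 0.27 (SE 0.09) at E17.5 and was called at neither. Hmox1, the heme oxygenase, was -0.32 (SE 0.12) at 2 weeks and 0.34 (SE 0.08) at E17.5, uncalled at each, and its interaction with stage was called (-0.63, SE 0.15, edgeR adjusted p = 0.0468). The median of the metal list was 0.013 at 2 weeks and -0.07 at E17.5, beside -0.013 and 0.0013 over all genes.

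Fasting and PPARA genes leaned one way at 2 weeks and the other way at E17.5. At 2 weeks 17 of 18 had a log2 difference below 0 (median -0.38), beside 52.0% of all genes tested (median -0.013). Of the 18, 2 were called lower, the gluconeogenic enzymes Pck1 and G6pc, where 1.74% of all genes were called lower. The 6 hepatocyte markers had log2 differences on the same side at 2 weeks, with 5 below 0, none called, a median of -0.29 and summed RPKM that did not overlap between genotypes, and their part in the list's direction was not tested. At E17.5, 17 of 18 lay above 0 (median 0.37), beside 49.7% of all genes below 0 (median 0.0013). None was called, and 11 had an unadjusted p under 0.05, where 12.9% of all 13388 genes did (edgeR). The number below 0 at 2 weeks was 15 with scaling by library totals, 13 with limma on log2(RPKM + 0.1) and 13 without wildtype replicate 3, and the number above 0 at E17.5 was 15 to 17 over all alternatives run, a recount added after the data were seen. For the interaction with stage all 18 were below 0 (median -0.64) in the fit with TMM factors and at least 16 in every alternative. Of all genes, 49.4% were below 0 in the fit with TMM factors (median 0.0054). G6pc and Acot1 were called lower (edgeR, adjusted p = 0.0488 and 0.0437), where 1.01% of all genes were called lower and 0.799% higher. Pck1 was 402, 517, 475 and 521 RPKM in Stab1-/- and 567, 869, 1102 and 822 RPKM in wildtype livers at 2 weeks, with no overlap and a log2 difference of -0.90 (SE 0.19, edgeR adjusted p = 0.0328). G6pc was 122, 111, 109 and 108 RPKM in Stab1-/- and 120.4, 268, 184 and 171 RPKM in wildtype livers, with -0.82 (SE 0.19, edgeR adjusted p = 0.0455). Wildtype replicate 1 overlapped the Stab1-/- livers in G6pc. At E17.5 both genes were near the bottom of the range, Pck1 at 0.767 to 5.15 RPKM and G6pc at 0.541 to 4.22 RPKM over the 7 livers. Igfbp1, a fasting and stress-inducible binding protein, showed the list's widest split, with -0.88 (SE 0.48) at 2 weeks and 1.28 (SE 0.29) at E17.5, uncalled at each. Igfbp1 stands in the study's own list of genes higher in E17.5 Stab1-/- livers, which was drawn from these libraries. Fed-state and lipogenic genes held 0 calls among 10 at 2 weeks. At E17.5, where 0.172% of all genes were called lower and 0.194% higher, Pnpla3, a lipid-droplet protein induced by feeding, was the 1 call. It was 2.11 to 2.496 RPKM in Stab1-/- and 3.62 to 4.67 RPKM in wildtype livers, a log2 difference of -0.74 (SE 0.13, edgeR adjusted p = 0.0474).

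**Figure D5:**
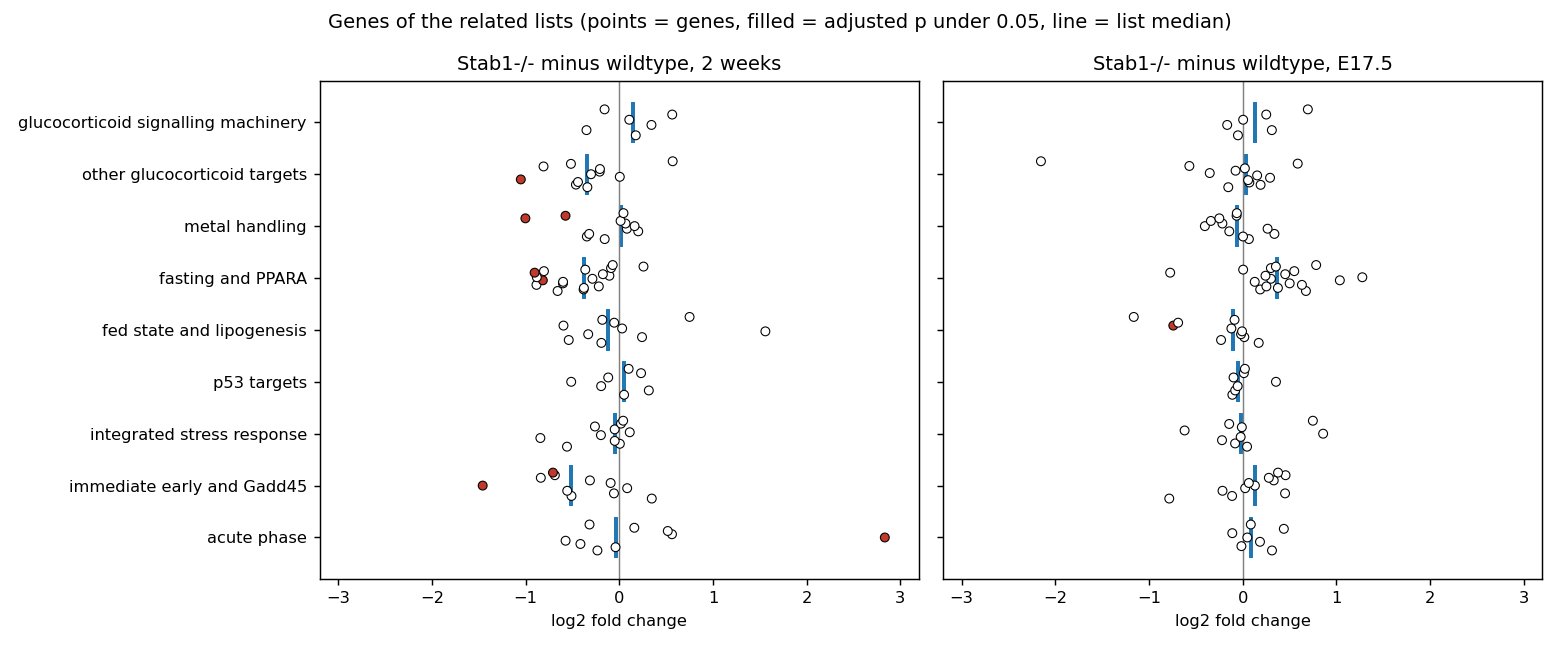
Log2 fold changes of Stab1-/- minus wildtype at 2 weeks and at E17.5 (edgeR) for the genes of the 9 related lists, with filled points for an adjusted p under 0.05 and a vertical line at each list's median. The fasting and PPARA list has its median at -0.38 at 2 weeks and 0.37 at E17.5.

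Among stress lists, 11 immediate early and Gadd45 genes were tested at 2 weeks. Of these, 2 were lower and 0 higher, where 1.74% of all genes were called lower and 0.936% higher. The list median was -0.51, beside -0.013 over all genes. With 1 library left out the list median ran from -0.69 to -0.34, and over the other alternatives from -0.53 to -0.18. Gadd45g, a relative of Gadd45b, was 5.06, 3.85, 4.597 and 3.99 RPKM in Stab1-/- and 17.2, 7.09, 10.5 and 10.3 RPKM in wildtype livers, without overlap, and its log2 difference was -1.46 (SE 0.24, edgeR adjusted p = 0.00931). Zfp36, which destabilises cytokine messages, was 13.3 to 16.7 RPKM in Stab1-/- and 17.1 to 28.3 RPKM in wildtype livers, with -0.71 (SE 0.15, edgeR adjusted p = 0.0310). At E17.5 none was called, and the interaction with stage was called for Zfp36 (-1.05, SE 0.20, edgeR adjusted p = 0.0224) and Gadd45g (-1.56, SE 0.35, edgeR adjusted p = 0.0373). For the interaction 1.01% of all genes were called lower and 0.799% higher. The 7 p53 targets and the 10 genes of the integrated stress response tested at 2 weeks held no call at either stage, with medians of 0.05 and -0.05 at 2 weeks. Of 9 acute phase genes tested at 2 weeks 1 was higher, Orm1, and 0 lower, where 0.936% of all genes were called higher and 1.74% lower. Orm1 was 13.9, 5.91, 6.47 and 17.65 RPKM in Stab1-/- and 2.12, 2.23, 1.10 and 0.366 RPKM in wildtype livers, a log2 difference of 2.83 (SE 0.47, edgeR adjusted p = 0.0102). Orm1 stands in the study's own list from these libraries. Its interaction with stage was called as well (2.98, SE 0.65, edgeR adjusted p = 0.0347). The median of the acute phase list was -0.04 at 2 weeks, beside -0.013 over all genes, with Saa1 at 0.56 (SE 0.21) and Hp at -0.04 (SE 0.17), neither called.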

How the data were processed

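Total liver RNA was isolated with a column kit and sequenced on the Illumina platform, per the labels and the study's methods. The authors deposited unique read counts per gene, the RPKM derived from them, the percent of each gene covered by reads, and a gene length. The aligner, genome build and use of strand are not given in the sources used here. RPKM recomputed from counts, length and summed counts matched the deposited values, and the coverage percent was not tested. Each of the 10 symbols had 1 row. The count test was edgeR's (version 4.0.16, R 4.3.3; TMM factors, quasi-likelihood, genes kept at a minimum count of 10 and total of 15, Benjamini-Hochberg), separately for each genotype and stage comparison, with all 4 groups for the interaction. DESeq2 1.42.0, limma 3.58.1 on log2(RPKM + 0.1) and log2(RPKM + 1), other scalings, no filter, GC-content offsets, a replicate block and each library left out were alternatives. Single values were compared with a two-sided exact permutation test on log2(RPKM + 0.1). Replicates were separate samples, and the tests set the differences between groups against the spread between replicates. The fits were tested on simulated data. The members and gene lists were chosen with earlier results of these data known. The genes named were the 10 members, each list's called genes and, for Mt1, Mt2, Fkbp5, Tsc22d3 and Angptl4, the 3 genes with the highest Pearson correlation among those with a mean of at least 50 reads per library. List genes without a genotype call were named after their values were seen. Counting intervals and floors cover counting error only.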

Additional observations from a re-analysis of the deposited data

Results flagged for a closer look

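In 3 of 29 groups of 4 livers, 1 liver lay far enough from the others to pass Dixon's criterion, where chance would flag about 1 in 20 groups, that is 1.45. All 3 were among the wildtype mice at 2 weeks. Mt1 was 523.7 RPKM in replicate 3 and at most 115.4 RPKM in the other 3 livers, and Mt2 was 177.4 RPKM in replicate 3 and at most 13.78 RPKM in the others. Sgk1 was 16.71 RPKM in replicate 1 and at least 21.39 RPKM in the others. Mt1 and Mt2 are neighbouring genes that deviated together, so that their values in replicate 3 are not separate observations.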

How the results depend on the processing

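Genes called at 2 weeks numbered 340, and 887 with DESeq2, 219 with limma on log2(RPKM + 0.1), 703 with all 15 libraries in one fit, 1181 with a replicate block, 773 with the block and GC-content offsets, and 116 to 648 with 1 library left out. Members called higher there went from 0 to 1 with the block and with the block and GC-content offsets (Mt2, edgeR adjusted p = 0.0372 and 0.0385), and were 0 to 1 with 1 library left out. Members called lower went from 1 to 0 with median-of-ratios factors, library totals and both limma fits (Sgk1, adjusted p = 0.0512, 0.0807, 0.0811 and 0.0776), and were 0 to 1 with 1 library left out. At E17.5, 49 genes became 219 with DESeq2, 23 with the block and 27 to 46 with 1 library left out, and members called higher went from 0 to 2 with DESeq2 and were 0 to 2 with 1 library left out. In wildtype livers, members called lower by stage went from 2 to 1 with DESeq2, which gave Mt1 no adjusted p. The 251 interaction calls became 1066 with DESeq2, 440 with limma on log2(RPKM + 1), 591 with the block and 30 to 684 with 1 library left out. The stage difference in wildtype livers reversed for Fkbp5 (-0.1293 with library totals, -0.1447 and -0.1401 with limma) and for Cdkn1a (-0.03016, -0.04805 and -0.04296), none of these called. The labels tie same-numbered livers to no shared litter or day, and they were not treated as pairs because not every pair correlated over 0.1. Their deviations correlated at 0.247, 0.0262, 0.184 and 0.161 at 2 weeks and at 0.00923, -0.127 and -0.208 at E17.5, and at 2 weeks not every liver correlated best with its own number. The block also moved Cdkn1a in the wildtype stage comparison to an adjusted p of 0.0241 and Gadd45b in the Stab1-/- one to 0.1347 (edgeR). The causes of these changes were not tested. With 3 or 4 livers a group the smallest exact permutation p was 0.0286, and Fgf21 could not be tested between fetal genotypes at 0 to 2 reads.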
